A study of Homo sapiens with 6 samples.

Results

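TXNIP and its relatives among the alpha-arrestins, together with the transcription factors that tie TXNIP to glucose, were measured in BE(2)-C, a MYCN-amplified neuroblastoma cell line of human origin, on Affymetrix gene-level arrays with 1 array per sample. The set holds 8 of the 18404 genes tested. They are 5 alpha-arrestins (TXNIP, ARRDC1, ARRDC2, ARRDC3 and ARRDC4) and 3 glucose-sensing factors (MLXIP, MLXIPL and MLX). A further arrestin-domain gene, ARRDC5, was not analysed. The treated group was 3 samples kept for 24 h in 5 µM BIX01294, an inhibitor of the H3K9 methyltransferases encoded by EHMT2 and EHMT1, and the control group was 3 samples kept for 24 h in the solvent DMSO at 0.05%. All 6 samples were grown in DMEM with dialyzed serum, and whether the treated cultures held DMSO is not stated in the labels. The cells are 1 line, so the spread is that between samples of this line. Genes were chosen by name, and for each gene the row was selected by its highest mean over the 6 arrays. All 8 genes had exactly 1 row, so that step changed nothing. The family was put forward with results of the same treatment comparison known. The differences of these 8 genes, and the side of the threshold on which each fell, are therefore given as a description and not as a test.

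Alpha-arrestins are adaptor proteins that bind membrane cargo and, through PPxY motifs, ubiquitin ligases of the NEDD4 family, which sends the cargo into endosomes. TXNIP additionally binds thioredoxin, and TXNIP and ARRDC4 restrain glucose uptake by removing glucose transporters from the cell surface. MLXIP (MondoA) and MLXIPL (ChREBP) are basic helix-loop-helix factors that, as dimers with MLX, respond to glucose 6-phosphate and bind carbohydrate response elements. TXNIP and ARRDC4 are among their best known target genes.

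RefSeq promoter windows of assembly GRCh38.p14 were found for all 8 genes, 11 windows in all, and the 250 bases before each annotated start were searched on both strands. The windows of TXNIP and ARRDC4, the alpha-arrestins that were lower by the largest amounts, are shown with that of ARRDC3, which was higher. TXNIP and ARRDC3 each have a pair of windows, and the one shown was picked after the search, as the one that holds the spaced motif (TXNIP) or a forkhead heptamer (ARRDC3). The other TXNIP window, at chr1:145995745-145995994, holds none of the motifs, and the other ARRDC3 window, at chr5:91383318-91383567, holds a CCAAT box 241 bases before its start. Capitals mark matches to 4 motifs: CACGNG and CNCG separated by 5 bases of any kind (the layout of a carbohydrate response element), the E-box CACGTG, the box CCAAT, and the forkhead heptamer GTAAACA. The TXNIP window shown lies on the minus strand at chr1:145996580-145996829, the ARRDC4 window on the plus strand at chr15:97960453-97960702, and the ARRDC3 window shown on the minus strand at chr5:91380098-91380347.
TXNIP: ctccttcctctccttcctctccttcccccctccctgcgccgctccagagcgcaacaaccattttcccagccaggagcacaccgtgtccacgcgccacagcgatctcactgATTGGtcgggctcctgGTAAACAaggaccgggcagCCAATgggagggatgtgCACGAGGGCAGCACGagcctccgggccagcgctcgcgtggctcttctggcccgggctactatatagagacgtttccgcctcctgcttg
ARRDC4: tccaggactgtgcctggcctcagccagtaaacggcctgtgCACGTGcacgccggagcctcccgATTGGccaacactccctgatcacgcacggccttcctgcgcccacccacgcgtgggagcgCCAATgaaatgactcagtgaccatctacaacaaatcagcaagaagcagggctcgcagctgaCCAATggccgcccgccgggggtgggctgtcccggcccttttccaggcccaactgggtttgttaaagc
ARRDC3: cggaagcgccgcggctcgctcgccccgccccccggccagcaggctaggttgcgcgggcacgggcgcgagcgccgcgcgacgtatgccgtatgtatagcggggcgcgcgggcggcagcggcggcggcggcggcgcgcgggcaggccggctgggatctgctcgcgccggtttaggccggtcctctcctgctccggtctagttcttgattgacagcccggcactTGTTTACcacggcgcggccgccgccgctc

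The spaced pair of CACGNG and CNCG was found once in the TXNIP window shown, starting 88 bases before the annotated start, and in none of the other windows of these genes. It occurs in 1.28% of the 35116 RefSeq windows of that length. In TXNIP it follows a forkhead heptamer, 124 bases before the start, which itself lies between CCAAT boxes at 140 and 105 bases. The ARRDC4 window holds an E-box 210 bases before its start and CCAAT boxes at 187, 128 and 67 bases. The ARRDC3 window shown holds 1 forkhead heptamer, on the other strand, 29 bases before its start. MLX holds an E-box 50 bases before its start and a CCAAT box at 66 bases. CCAAT boxes also lie in the windows of ARRDC1 (80 bases) and MLXIP (76 bases) and in an ARRDC2 window (93 bases). They are therefore not particular to the genes that were lower. The E-box occurs in 6.34% of windows, CCAAT in 32% and the forkhead heptamer in 2.98%. These matches are letters in a sequence. No occupancy of a factor was measured here, and an element outside these windows would not have been seen.

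Array medians on the log2 scale were 6.943, 6.981 and 6.959 in BIX01294 and 6.984, 6.986 and 7.013 in DMSO. Every BIX01294 median was thus slightly below every DMSO median. In the limma fit across all genes, 23.6% were past an adjusted p of 0.05, 12.9% higher and 10.7% lower in BIX01294, and for 40.1% no BIX01294 value lay within the range of the DMSO values or the reverse. Of all called genes 54.7% were higher, a share that was 66.0% once each array had been centred on its median. Of the 8 genes, 5 were past that threshold, 2 higher and 3 lower, and the same 5 had groups that did not overlap. The median log2 difference of the 8 genes was -0.08, against -0.01 over all genes. Members went in both directions.

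TXNIP, which binds and inhibits thioredoxin, had the largest difference of the 8. Its level (transcript cluster 7904726, chromosome 1) was 10.74, 10.82 and 10.72 in the BIX01294 arrays, against 11.85, 11.97 and 11.96 in the DMSO arrays, on the log2 scale. The 3 treated arrays lie close together, and all of them lie more than 1 log2 unit below every control array. The means were 10.76 ± 0.05 in BIX01294 and 11.93 ± 0.07 in DMSO (SD, n = 3 each), a log2 difference of -1.17 ± 0.060 (SE), which is a 2.25-fold lower level. Its difference was number 34 from the lowest of 18404, and TXNIP was 1 of 67 genes past the threshold and at least 2-fold lower. In RNA from whole cultures, fewer cells that express a gene and less RNA per cell cannot be told apart.

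ARRDC4, the alpha-arrestin closest to TXNIP in known function, was lower too. It measured (transcript cluster 7986350, chromosome 15) 8.27, 8.28 and 8.33 in the BIX01294 arrays, against 8.96, 9.04 and 9.06 in the DMSO arrays. The groups did not overlap, and arrays within a group lay close together. The means were 8.29 ± 0.03 in BIX01294 and 9.02 ± 0.05 in DMSO (SD, n = 3 each), and the log2 difference of -0.73 ± 0.055 (SE) corresponds to a 1.66-fold lower level. Its difference was number 156 from the lowest of all genes. The difference in TXNIP was larger than that in ARRDC4 on the log2 scale, and no test was made between them.

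ARRDC3, an adaptor that takes integrin beta-4 into endosomes, went the other way. It measured (transcript cluster 8113073, chromosome 5) 10.03, 9.95 and 10.02 in the BIX01294 arrays, against 9.59, 9.65 and 9.40 in the DMSO arrays. Every treated array was above every control array, and the lowest value was that of DMSO replicate 3. The means were 10.00 ± 0.05 in BIX01294 and 9.55 ± 0.13 in DMSO (SD, n = 3 each), a log2 difference of 0.45 ± 0.075 (SE), or 1.37-fold higher. The difference ran from 0.38 to 0.50 when each array was left out in turn.

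ARRDC2 and ARRDC1 had smaller differences. ARRDC2 (transcript cluster 8026915, chromosome 19) measured 7.30, 7.15 and 7.24 in the BIX01294 arrays, against 7.42, 7.46 and 7.45 in the DMSO arrays. These groups do not overlap, but the gap between the nearest arrays is small. The log2 difference was -0.21 ± 0.059 (SE), 1.16-fold lower, and it was on the other side of the threshold in 10 of the 13 alternatives that tested it. ARRDC1 (transcript cluster 8159692, chromosome 9), which recruits the ESCRT machinery to the plasma membrane for the release of vesicles, measured 6.72, 6.65 and 6.75 in the BIX01294 arrays, against 6.66, 6.75 and 6.69 in the DMSO arrays. The ARRDC1 groups overlap fully, and the log2 difference was 0.01 ± 0.057 (SE).

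**Figure D1:**
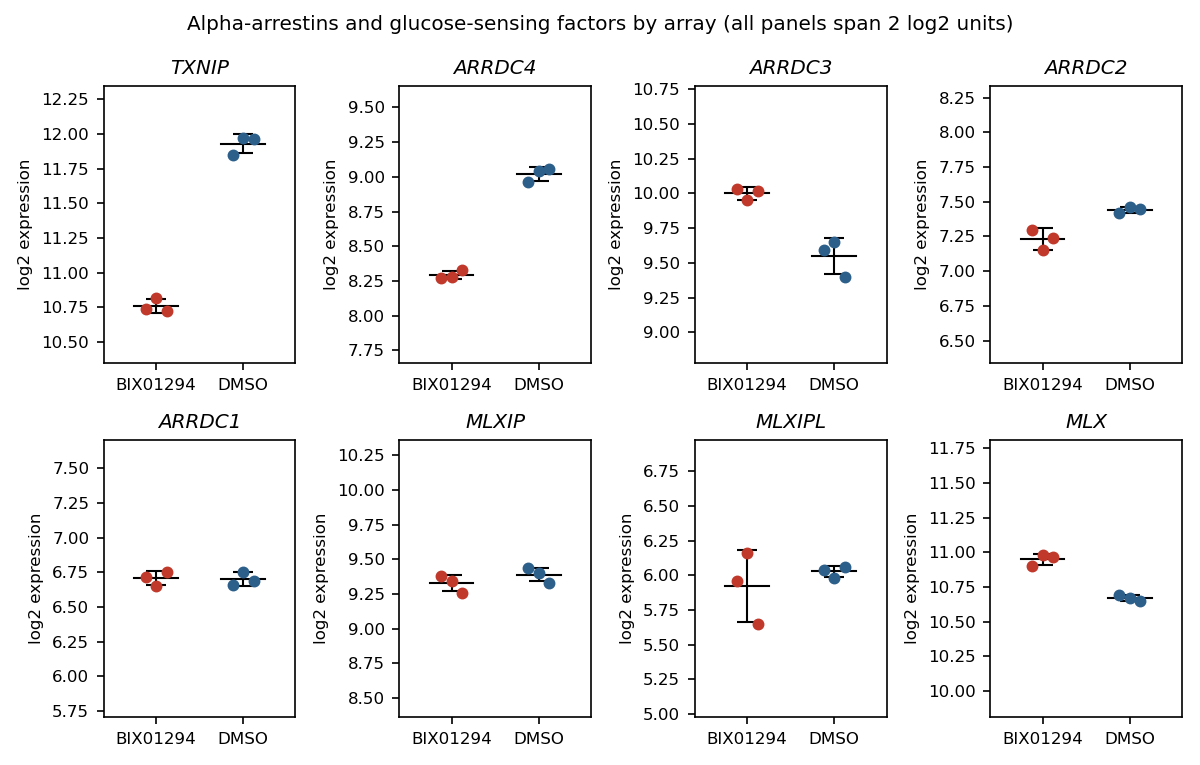
Log2 expression of the 8 genes in each array, 3 BIX01294 arrays (left, red) and 3 DMSO arrays (right, blue) per panel, with the mean as a horizontal line and the SD as an error bar; every vertical axis spans 2 log2 units. TXNIP and ARRDC4 lie lower in all BIX01294 arrays, ARRDC3 and MLX higher, and the ARRDC1, MLXIP and MLXIPL groups overlap.

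The glucose-sensing factors did not share the pattern of TXNIP and ARRDC4. MLXIP, the MondoA subunit (transcript cluster 7959361, chromosome 12), measured 9.38, 9.34 and 9.26 in the BIX01294 arrays, against 9.44, 9.40 and 9.33 in the DMSO arrays. The groups overlap, and the log2 difference was -0.06 ± 0.059 (SE). MLXIPL, the ChREBP subunit (transcript cluster 8140085, chromosome 7), measured 5.96, 6.16 and 5.65 in the BIX01294 arrays, against 6.04, 5.98 and 6.06 in the DMSO arrays. MLXIPL varied most between treated arrays, with an SD of 0.26 in BIX01294 and 0.04 in DMSO (n = 3 each), and its log2 difference of -0.10 ± 0.12 (SE) took the opposite sign, 0.03, without BIX01294 replicate 3. None of the 8 genes lay below the lower quartile of the arrays (5.36 to 5.41), but the table gives no detection call.

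MLX, the shared dimer partner of MondoA and ChREBP, was higher. It measured (transcript cluster 8007290, chromosome 17) 10.90, 10.98 and 10.97 in the BIX01294 arrays, against 10.69, 10.67 and 10.65 in the DMSO arrays. The groups did not overlap. The means were 10.95 ± 0.04 in BIX01294 and 10.67 ± 0.02 in DMSO (SD, n = 3 each), a log2 difference of 0.28 ± 0.053 (SE), or 1.22-fold higher.

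**Figure D2:**
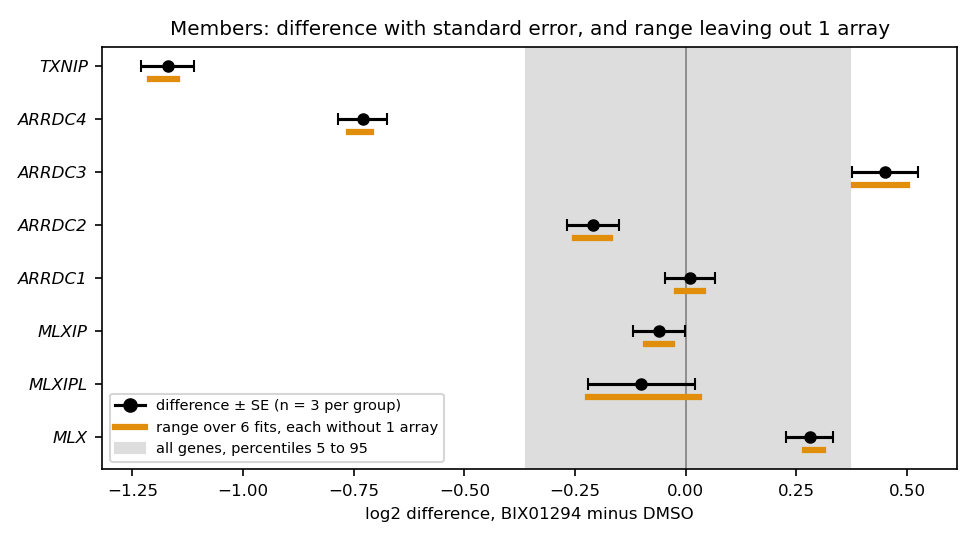
Log2 difference of BIX01294 minus DMSO for the 8 genes (black points, with the standard error as a bar), the range of that difference over 6 fits that each leave out 1 array (orange), and the 5th to 95th percentile of all 18404 genes (grey, -0.36 to 0.37). TXNIP (-1.17) and ARRDC4 (-0.73) lie below the grey band and ARRDC3 (0.45) above it, while the other 5 lie inside.

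MLX also forms dimers with the repressors MXD1, MXD4 and MNT, which compete in the MYC and MAX network. Of these 3 genes 2 fell and none rose. Over all genes 10.7% were lower. This list, like the other related lists, was chosen with earlier results of these data known. Its count is a description and not a test of the list. The adjusted p-values given here come from the limma fit over all genes. The median log2 difference of the 3, -0.38, is the value of MXD1. MXD4 measured 7.85, 8.06 and 7.78 in the BIX01294 arrays, against 8.64, 8.47 and 8.68 in the DMSO arrays, a fall of 1.62-fold (log2 difference -0.70 ± 0.090 SE, adjusted p 0.00123 in limma). MXD1 fell 1.31-fold (log2 difference -0.38 ± 0.066 SE, adjusted p 0.00423), with 8.37, 8.38 and 8.47 in the BIX01294 arrays, against 8.89, 8.75 and 8.72 in the DMSO arrays. MNT averaged 7.93 ± 0.09 in BIX01294 and 8.07 ± 0.13 in DMSO (SD, n = 3 each), its groups overlapped, and it did not pass (adjusted p 0.264).

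Other targets that are known for MondoA or ChREBP, mostly from liver, showed no common direction among those called. Of 19 measured, 3 rose, 2 fell and 14 did not pass, with a median log2 difference of 0.06. Over all genes 12.9% were higher and 10.7% lower. Levels in this list reached down to 4.34 in BIX01294 and 4.49 in DMSO, under the lower quartile of every array (5.36 to 5.41). Some of the 14 may not be expressed in these cells, and no detection call was given. Malic enzyme ME1 rose 1.35-fold, with a mean of 10.67 ± 0.04 in BIX01294 and 10.24 ± 0.05 in DMSO (SD, n = 3 each; adjusted p 0.00114 in limma). The fatty acid elongase ELOVL6 rose 1.35-fold (adjusted p 0.0009). Fructokinase (KHK), named after its value was seen, rose 1.28-fold (adjusted p 0.00348). Acetyl-CoA carboxylase beta (ACACB) fell 1.39-fold, with a mean of 6.90 ± 0.09 in BIX01294 and 7.38 ± 0.11 in DMSO (SD, n = 3 each; adjusted p 0.00326). FGF21, a secreted metabolic hormone, fell by 0.59 on the log2 scale (adjusted p 0.0123), and its treated arrays were spread from 5.72 to 6.28. These 19 genes leave out TXNIP and ARRDC4. The rises numbered 6 with median centring, without dim genes or with an intensity trend, and the falls 4 with quantile normalization or the trend.

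Of 16 measured genes of the thioredoxin system, which TXNIP inhibits, 5 rose, 1 fell and 10 did not pass, with a median log2 difference of 0.10. Over all genes 12.9% were higher and 10.7% lower. Calls over all genes also leaned to rises, at 54.7% higher and at 60.0% without dim genes. Whether this list leaned further was not tested. Thioredoxin (TXN), the direct partner of TXNIP, measured 11.16, 10.90 and 11.06 in the BIX01294 arrays, against 10.75, 10.67 and 10.59 in the DMSO arrays. It rose 1.29-fold (log2 difference 0.37 ± 0.078 SE, adjusted p 0.0107 in limma), with no overlap. The thioredoxin-like protein TXNL1 rose 1.26-fold (adjusted p 0.00286), and RRM2, the ribonucleotide reductase subunit of an enzyme that thioredoxin recharges, rose 1.42-fold (adjusted p 0.00043). Thioredoxin reductase TXNRD1 and the peroxiredoxin PRDX1, the second named after its value was seen, rose 1.18-fold (adjusted p 0.0372) and 1.16-fold (adjusted p 0.0233). Nucleoredoxin (NXN), also named after its value was seen, fell 1.15-fold (adjusted p 0.0485). The NXN call was lost in every fit that left out 1 array, with the replicate block and with median centring, so that none of the list fell there. TXNRD1 was lost with quantile normalization, with the replicate block and without any 1 array except BIX01294 array 2. Altogether 3 genes rose, in place of 5, on leaving out BIX01294 array 1 or 3, or DMSO array 2 or 3.

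**Figure D3:**
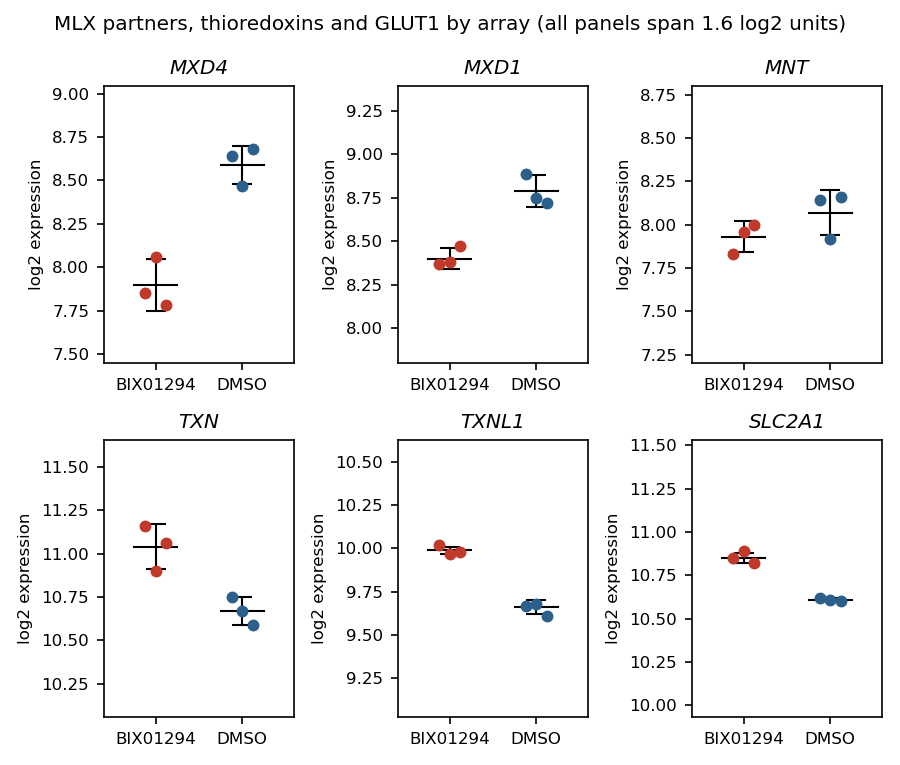
Log2 expression of the MLX partners MXD4, MXD1 and MNT, of thioredoxin (TXN) and the thioredoxin-like TXNL1, and of the glucose transporter gene SLC2A1 in 3 BIX01294 arrays (left, red) and 3 DMSO arrays (right, blue), with mean and SD; every vertical axis spans 1.6 log2 units. MXD4 and MXD1 are lower in BIX01294, the MNT groups overlap, and TXN, TXNL1 and SLC2A1 are higher.

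Called glucose transporters went in both directions, as called genes did in general (12.9% of all genes higher and 10.7% lower). Of 18 measured, 3 rose, 2 fell and 13 did not pass, with a median log2 difference of -0.03. Levels in this list reached down to 4.34 in BIX01294 and 4.45 in DMSO, under the lower quartile of every array (5.36 to 5.41). SLC2A1 (GLUT1), whose protein TXNIP and ARRDC4 take off the cell surface, measured 10.85, 10.89 and 10.82 in the BIX01294 arrays, against 10.62, 10.61 and 10.60 in the DMSO arrays. It rose 1.18-fold (log2 difference 0.24 ± 0.051 SE, adjusted p 0.0103 in limma), a small difference beside narrow groups. SLC2A6 rose 1.36-fold (adjusted p 0.00609) and the proton-coupled inositol transporter SLC2A13 rose 1.22-fold (adjusted p 0.0144), a call lost without DMSO replicate 1. SLC2A12 fell 1.81-fold, with a mean of 5.51 ± 0.21 in BIX01294 and 6.37 ± 0.04 in DMSO (SD, n = 3 each; adjusted p 0.00076), and its lowest treated value of 5.27 was under the lower quartile of every array. SLC5A3, which carries inositol with sodium, fell 1.20-fold (adjusted p 0.0181), and on leaving out BIX01294 array 1 or 3, or DMSO array 1 or 2, its call was lost, which left 1 fall. Array levels are of transcript and say nothing of transporters at the surface.

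Glucose 6-phosphate is the metabolite that MondoA and ChREBP sense. Among 13 measured genes for making or using it, 1 rose, 2 fell and 10 did not pass (median log2 difference 0.04). For this count and that of AMPK below, the shares over all genes were 12.9% higher and 10.7% lower. Hexokinase HK1 rose 1.25-fold (9.68 ± 0.03 in BIX01294 and 9.36 ± 0.09 in DMSO; SD, n = 3 each; adjusted p 0.00715 in limma). H6PD, the hexose 6-phosphate dehydrogenase of the endoplasmic reticulum, fell 1.25-fold (adjusted p 0.00502), and SLC37A4, which carries glucose 6-phosphate into that compartment, fell 1.16-fold (adjusted p 0.0262), a call lost with the replicate block and on leaving out BIX01294 array 1 or 3, or DMSO array 1 or 2. The balance depended on the setting: 3 genes of this list rose with median centring, without dim genes or with an intensity trend, and 2 without DMSO replicate 1. The kinase AMPK phosphorylates TXNIP and marks it for degradation. Of 13 genes for its subunits and upstream kinases, 1 rose, 1 fell and 11 did not pass (median 0.02). The subunit gene PRKAB2 measured 9.46, 9.51 and 9.55 in the BIX01294 arrays, against 10.13, 10.06 and 10.10 in the DMSO arrays, a log2 difference of -0.59 ± 0.054 (SE, adjusted p 0.000277). CAB39, part of the LKB1 complex, rose 1.16-fold (adjusted p 0.0186), and that call was lost on leaving out BIX01294 array 2 or 3, or DMSO array 1 or 2.

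Few ubiquitin ligases and endosomal partners passed, a share near that of all genes. The list held ligases of the NEDD4 family, the ligase HACE1, the adaptors NDFIP1 and NDFIP2, and ESCRT genes. Of 16 measured, 2 rose, 1 fell and 13 did not pass, and the median log2 difference was 0.07. Over all genes 23.6% passed. STAM2, an endosomal sorting adaptor, rose 1.36-fold (8.89 ± 0.05 in BIX01294 and 8.45 ± 0.15 in DMSO; SD, n = 3 each; adjusted p 0.00591 in limma). The ligase HECW2 rose 1.23-fold (adjusted p 0.0294) and the ligase NEDD4L fell 1.16-fold (adjusted p 0.0306), and both calls were lost with the replicate block and on leaving out BIX01294 array 2 or 3, or DMSO array 2 or 3. NEDD4L was lost also on leaving out DMSO array 1 and under quantile normalization or median centring. ITCH, the ligase known to ubiquitinate TXNIP, did not pass, with a log2 difference of 0.08. Among 6 relatives with an arrestin fold, the retromer subunits VPS26A and VPS26B rose 1.22-fold (adjusted p 0.0115) and 1.19-fold (adjusted p 0.017), none fell, and the median was 0.07. The VPS26B call was lost on leaving out BIX01294 array 1 or 3, or DMSO array 1. Of 8 reported cargo or binding partners, SLC2A1 rose and the insulin receptor gene INSR fell 1.21-fold (adjusted p 0.0367), a call lost on leaving out BIX01294 array 1 or 3, or DMSO array 1 or 2, and 6 did not pass (median -0.11).

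**Figure D4:**
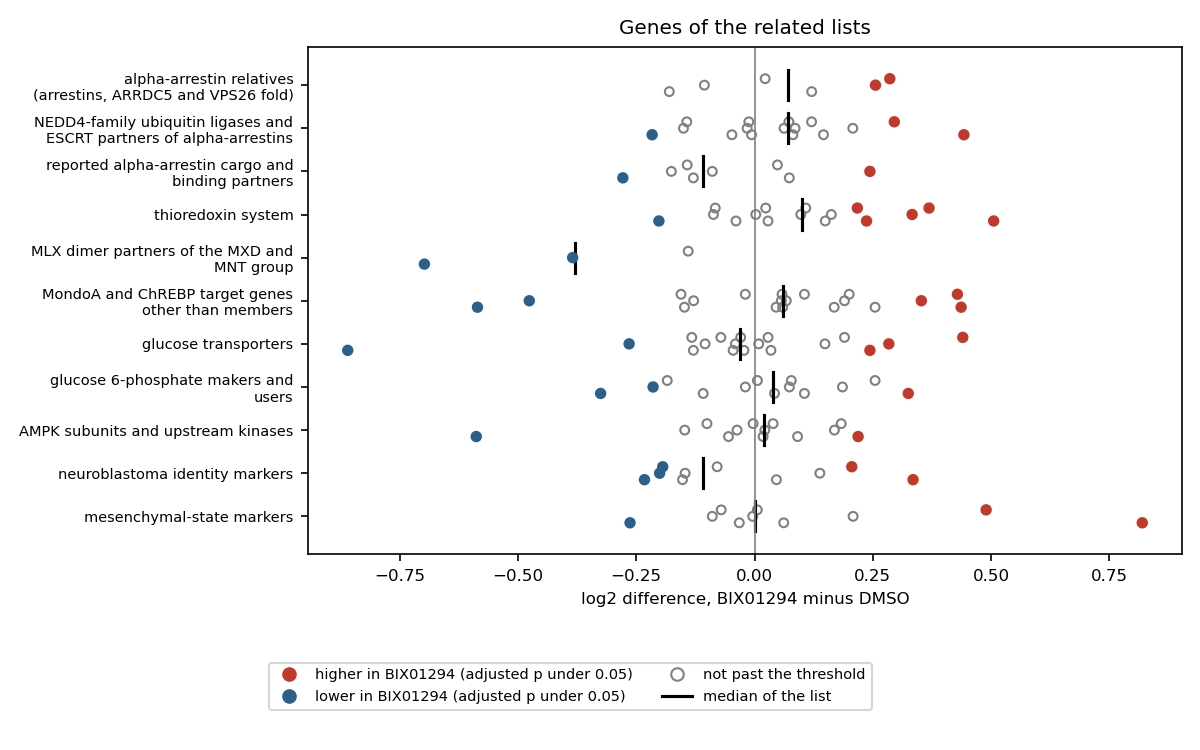
Log2 difference of BIX01294 minus DMSO for each measured gene of 11 related lists, 1 list per line, filled red where higher and blue where lower at an adjusted p under 0.05 in limma, open grey otherwise, with the list's median as a black bar. List medians lie between -0.11 and 0.10, except for the 3 MLX partners at -0.38.

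The arrays held the transcripts of the labelled cell type. All 10 measured markers of neuroblastoma identity lay between 9.63 and 13.49 in the BIX01294 arrays and between 9.27 and 13.58 in the DMSO arrays. Of these markers 2 rose (ISL1 1.26-fold and GATA2 1.15-fold) and 3 fell (GATA3 1.18-fold, PHOX2A 1.15-fold and CHGA 1.14-fold, the last named after its value was seen), with a median log2 difference of -0.11. On leaving out BIX01294 array 3, DMSO array 1 or DMSO array 2, none of these markers fell, and without BIX01294 replicate 1 it was 1. With the replicate block, or without any 1 array except BIX01294 array 3, ISL1 was the only marker that rose. The balance turned with the scaling, with 3 higher and 1 lower after median centring and 1 higher and 5 lower after quantile normalization. Among 10 markers of the mesenchymal state that such lines can also hold, vimentin (VIM) rose 1.76-fold (adjusted p 0.000132 in limma) and CD44 1.40-fold (adjusted p 0.000696), TWIST1 fell 1.20-fold (adjusted p 0.0133, lost without BIX01294 replicate 3), and the median was 0.00. The shares over all genes, beside which both marker lists stand, were 12.9% higher and 10.7% lower. The mesenchymal markers ran from 5.16 to 11.29 in BIX01294 and from 5.30 to 10.81 in DMSO. Their part in the differences of TXNIP, ARRDC4, ARRDC3 and MLX was not tested.

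Genes with the pattern most like that of TXNIP were found by the Euclidean distance between the 6 array values, each gene centred on its own mean. Members, locus numbers and open reading frame names were left out of the nearest genes named here. The nearest were PDGFRB, a receptor for platelet-derived growth factor (distance 0.129), BNIP3L, a mitophagy receptor (0.173), FAXDC2 (0.178), SERPINF1, a secreted serpin (0.184), and the non-coding RNA NBR2 (0.194). PDGFRB measured 8.82, 8.90 and 8.85 in the BIX01294 arrays, against 10.03, 10.04 and 9.97 in the DMSO arrays, and BNIP3L measured 10.21, 10.19 and 10.16 in the BIX01294 arrays, against 11.33, 11.25 and 11.31 in the DMSO arrays. All 5 were 2.14-fold to 2.25-fold lower. ARRDC4 stood at a distance of 0.554 from TXNIP, number 113 when all genes are counted. The genes nearest to ARRDC4 were GSDMB (0.097), YIPF3 (0.107), GRPEL2 (0.114), COQ8A (0.117) and MFAP4 (0.119), which were 1.57-fold to 1.67-fold lower. Since the 6 arrays form 2 groups, this likeness is mainly one of the size of the treatment difference.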

How the data were processed

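Total RNA of 6 BE(2)-C samples was measured on Affymetrix arrays. The deposited values are on a log2 scale, as judged from their range of 1.93 to 14.93, with 1 value for each array and transcript cluster. Partek is named in the submitters' processing notes, while the background correction, normalization and summary method are not stated there. Of 32321 rows, 19158 had exactly 1 gene symbol, which gave 18404 genes after keeping the brightest row per gene. Symbols were updated through the RefSeq gene table of GRCh38.p14, which matched 19128 rows.

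All genes were fitted with limma 3.58.1 in R 4.3.3, with treatment as the only term. Tests were two-sided, with Benjamini-Hochberg adjustment over all 18404 genes and a threshold of 0.05. The fit was also run on simulated independent noise with few changed genes, which is unlike these data. That run does not measure how far the calls made here hold. No filter was applied. The design text calls the samples independent without naming separate cultures. The p-values set each difference against the spread between these samples, which may be technical. They may not carry over to new cultures. The genes, the 11 related lists and the motifs were chosen with earlier results of these data known. Named were all 8 members, SLC2A1 and TXN. From each list came up to 4 genes past the threshold with the largest difference (all genes of a list of 3). Also named were the 5 genes nearest to TXNIP and to ARRDC4, leaving out members, locus numbers and open reading frame names. Others are marked, except ITCH, which this rule does not cover. Lists share some genes, and counts are over the members measured; some listed genes are not reported here. Alternatives were to leave out each array in turn, to block on the replicate number, to require a log2 change beyond 0.5 (treat), to normalize by quantiles, to centre on medians, to drop dim genes, to average a gene's rows, to fit an intensity trend, and to weight arrays. The number of arrays limits the precision.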

Additional observations from a re-analysis of the deposited data

How the results depend on the processing

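TXNIP kept its direction and its side of the threshold in all 14 alternatives, with log2 differences from -1.23 to -1.13. ARRDC4 (-0.76 to -0.69), ARRDC3 (0.38 to 0.50) and MLX (0.23 to 0.32) did so in 13 of 14, the exception being the minimum log2 change of 0.5, under which 1 of the 8 genes, TXNIP, passed, with 0 of the genes in the related lists and 145 of all genes. ARRDC2 was past the threshold with the mean of all rows, array weights and without BIX01294 replicate 1, and not past it in the other 10 that tested it. The members' count was 4 with quantile normalization and with median centring. Leaving out single arrays, 4 to 5 of the 8 genes passed. In those refits 24 to 31 genes of the related lists passed (24 without BIX01294 replicate 3), beside 37 with all arrays, and 3018 to 3663 of all genes, beside 4349; how many were the same genes was not counted. Of 56 named genes, 39 kept their side of the threshold in every alternative but the minimum change, and no called gene changed sign. Most of the 56 were named for their difference, and 52 were past the threshold in the main fit. Their stability was thus partly set by that choice and does not describe genes in general. Median centring moved the higher share of calls to 66.0%, against 54.7% as deposited. With the replicate block 4 of the 8 genes, 29 of the genes in the related lists and 3641 of all genes passed; same-numbered arrays deviated with correlations of 0.19, -0.18 and 0.05, so the numbers were not taken to pair the samples.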

Other observations

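Genes that hold the motifs shown for TXNIP and ARRDC4 were counted as a description. Of the 14228 tested genes with a RefSeq window, 13.5% were higher and 10.9% lower in BIX01294, with a median log2 difference of -0.004. Among 327 of them with the spaced pair of CACGNG and CNCG, 20.5% were higher and 11.9% lower (median 0.016). Among 1395 with the E-box, 16.9% were higher and 11.2% lower (median 0.01). Among 5743 with a CCAAT box, 14.8% were higher and 12.6% lower (median -0.004). Among 443 with the forkhead heptamer, 12.9% were higher and 14% lower (median -0.004). A gene can hold several motifs, and base composition of the windows was not matched in these counts.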
